A study of Mus musculus with 6 samples.

Results

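The 9 genes Spi1, Cebpa, Cebpb, Cebpd, Cebpe, Maf, Runx1, Mitf and Tfec encode transcription factors of the macrophage lineage. Their levels were compared between bone marrow-derived macrophages (BMDMs) of ATF3-CKO and WT mice, all treated with rGAS6, the recombinant form of the MerTK ligand GAS6. A gene was measured by the probe set (the group of array probes summarised as 1 value) whose annotation gave exactly 1 gene symbol equal to its own. This held for 8 of the 9 genes, with 1 probe set each, among 65956 probe sets in all and 30646 with 1 symbol. The only probe set annotated with Spi1 (TC0200001368.mm.1) carried a second symbol, Sfpi1, which RefSeq lists as a synonym of Spi1. It was left out of every count below and its values are given apart.

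The ATF3-CKO arrays, 3 in number, held RNA of BMDMs from mice with a floxed Atf3 gene and a Cre at Lyz2, which is active in myeloid cells in general and not in macrophages alone. The WT arrays, also 3, held RNA of BMDMs from mice with the same floxed gene and no Cre, so an effect of the Cre itself and an effect of losing ATF3 cannot be told apart. All mice were adults of the C57BL/6J strain, per the labels, and the study used male animals. Marrow cells of both groups grew into macrophages in 20 ng/ml M-CSF (macrophage colony-stimulating factor), received rGAS6 and were collected 24 h after hypoxia/reoxygenation (HR), which mimics ischemia and reperfusion in culture. Each value was the log2 intensity of a probe set, which has no read depth, and precision is limited by having 3 arrays a group.

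PU.1, encoded by Spi1, is the ETS factor that sets up macrophage enhancers, and RUNX1 acts early in blood development and on many of the same enhancers. The C/EBP proteins are basic leucine zipper factors: C/EBPα drives early granulocyte and monocyte commitment, C/EBPε late granule formation in neutrophils, and C/EBPβ and C/EBPδ the response to inflammatory signals. c-Maf, encoded by Maf, belongs to mature tissue macrophages, and MITF and its close relative TFEC are helix-loop-helix zipper factors of osteoclasts and macrophages. ATF3 is a basic leucine zipper factor too, which binds cyclic AMP response elements (CREs) and can pair with members of the C/EBP family.

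The gene targeted in the ATF3-CKO mice went against the labels. The Atf3 probe set read 9.20, 9.26 and 9.25 on the arrays labelled ATF3-CKO and 8.56, 8.46 and 8.38 on the WT arrays, a difference of 0.77 (SE 0.08, limma adjusted p = 0.00538). ATF3-CKO here means the arrays so labelled, and every direction is given by those labels. Whether the probe set lies in the deleted part of Atf3 was not tested, and if it lies elsewhere its level does not measure the deletion directly. The lysozyme gene Lyz2, where the Cre sits, averaged 19.42 ± 0.08 on the ATF3-CKO arrays and 18.92 ± 0.21 on the WT arrays (SD, n = 3 each; limma adjusted p = 0.0817, and 0.0391 without WT replicate 2). All ATF3-CKO arrays read above all WT arrays for Lyz2. Whether the Cre at this gene lowers the level that the probe set reads was not tested. Array medians lay between 4.22 and 4.42, and the 23 background control probe sets had a median of 2.74, against 4.32 for all probe sets. Of the 8 macrophage markers, all were above that median, and Cd14 and Mertk rose and Itgam fell in ATF3-CKO cells. The Mertk call was at the edge of the threshold of 0.05 (limma adjusted p = 0.0499). Cd68, a lysosomal glycoprotein of macrophages, read 18.89 ± 0.06 in ATF3-CKO cells and 18.86 ± 0.12 in WT cells (SD, n = 3 each).

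Other cell types did not read alike in the 2 groups. Of 12 neutrophil markers 6 passed the threshold, all lower in ATF3-CKO cells, and the summed unlogged intensity of the whole list ranged from 3670 to 14900 on the ATF3-CKO arrays and from 115000 to 183000 on the WT arrays. Such a sum follows its brightest genes, and not all markers ran lower: Csf3r, the G-CSF receptor, and Mmp8, the neutrophil collagenase, lay wholly above the WT arrays on the ATF3-CKO arrays, with differences of 0.76 (adjusted p = 0.102) and 0.61 (adjusted p = 0.125) that did not pass. The primary granule genes Elane and Mpo among them were near background in both groups, at 3.45 and 3.83 in ATF3-CKO cells and 3.46 and 3.75 in WT cells. Of 6 monocyte markers measured, Ly6c2 and F10 were lower in ATF3-CKO cells, with the summed list at 1110 to 3370 on the ATF3-CKO arrays and 16900 to 18600 on the WT arrays. Most of the WT sum came from Ly6c2 alone, which averaged 9.85 in ATF3-CKO cells and 13.99 in WT cells. The other 4, Ccr2, Vcan, Plac8 and Fn1, overlapped between the groups with differences of -0.03 to 0.11, and the list median was -0.02. Of 8 osteoclast markers, 4 were lower, with sums of 852 to 977 on the ATF3-CKO arrays and 5170 to 7620 on the WT arrays. They were Acp5, Ctsk, Itgb3 and Mmp9, and Mmp9 is also counted among the granulocyte genes below. The other 4, Dcstamp, Calcr, Ocstamp and Oscar, were below the median level of all probe sets in both groups, with differences of -0.24 to 0.06. Among fibroblast, mast cell, dendritic cell, B cell and progenitor markers none passed, with fibroblast sums of 364 to 983 on the ATF3-CKO arrays and 284 to 407 on the WT arrays, and of 4 T cell markers Cd4 alone passed, as higher. In RNA from whole cultures, fewer cells of a type and less RNA per cell cannot be told apart. The part of these cells in the results that follow was not tested.

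Of the 8 transcription factor genes measured, 2 passed an adjusted p of 0.05 and both, Cebpa and Maf, were higher in ATF3-CKO cells. This can be set against the background of the whole array, where 1.17% of probe sets passed as higher and 2.85% in either direction. Among the probe sets brighter than the median, as 7 of the 8 were, 2.2% passed as higher. The 3 ATF3-CKO arrays lay wholly above the 3 WT arrays for Cebpa, Maf, Runx1 and Cebpd, 4 of 8 genes, against 16.5% of all probe sets. None of the 8 lay wholly below, against 7.51% of all probe sets. The probe set annotated with Spi1 and Sfpi1, which is outside these counts, did lie wholly below. The median log2 difference (ATF3-CKO minus WT) was 0.54 over the 8 genes and 0.06 over all probe sets. No gene reached a 2-fold difference, the size that the methods of the study ask of a changed gene.

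**Figure D1:**
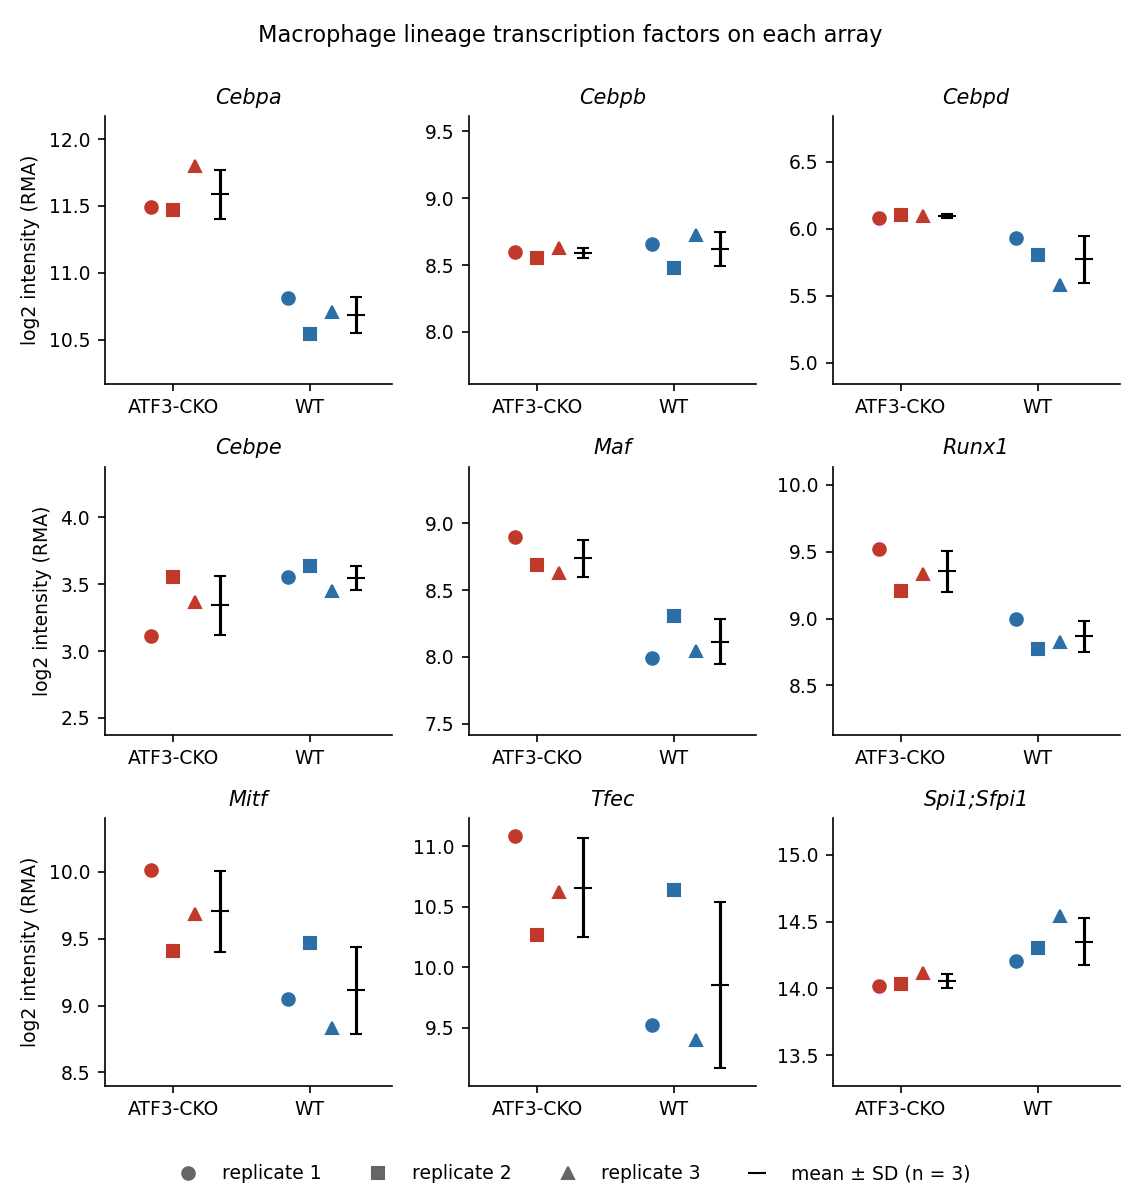
Log2 intensity of each transcription factor gene on each array, with ATF3-CKO left and WT right; symbols mark replicates 1 to 3, black bars the mean and SD (n = 3), and each vertical axis spans at least 2 log2 units. The groups are wholly apart for Cebpa, Maf, Runx1 and Cebpd, and in the last panel for the probe set annotated Spi1 and Sfpi1, while WT replicate 2 lies within the ATF3-CKO range for Mitf and Tfec.

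Cebpa, which encodes the C/EBP factor of granulocyte and monocyte progenitors, showed the largest difference of the 8 in the fit of all arrays, 0.90 against 0.80 for Tfec. The difference of Tfec was the larger of the pair with array weights, without replicate 2 of either group, and without ATF3-CKO replicate 3. The Cebpa probe set (TC0700000652.mm.1) read 11.49, 11.47 and 11.80 on the ATF3-CKO arrays and 10.81, 10.55 and 10.71 on the WT arrays. The lowest ATF3-CKO array was above the highest WT array, and the arrays of each group lay close together. The means were 11.59 ± 0.18 in ATF3-CKO cells and 10.69 ± 0.13 in WT cells (SD, n = 3 each), a difference of 0.90 (SE 0.12), or 1.86-fold. Cebpa passed the threshold with a limma adjusted p of 0.0134, and passed it again without any 1 of the 6 arrays, with adjusted p-values of 0.0280 to 0.0496.

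To show the DNA upstream of genes discussed here, the 250 bases before the RefSeq start (build GRCm38.p6) are given 5′ to 3′ for Cebpa, as the gene whose call held with each array left out, and for Mitf and Tfec, whose arrays shared an order. The table of promoters held 5 of the 9 genes with 8 starts. Capitals mark matches to the motifs searched.
Cebpa, chr7:35119043-35119292, plus strand: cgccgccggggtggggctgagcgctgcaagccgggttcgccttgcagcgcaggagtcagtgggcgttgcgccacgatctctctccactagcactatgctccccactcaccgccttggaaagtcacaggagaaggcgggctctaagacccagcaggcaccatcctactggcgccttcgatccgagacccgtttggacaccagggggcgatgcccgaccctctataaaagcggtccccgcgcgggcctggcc
Mitf, the most downstream of 3 starts, chr6:97991533-97991782, plus strand: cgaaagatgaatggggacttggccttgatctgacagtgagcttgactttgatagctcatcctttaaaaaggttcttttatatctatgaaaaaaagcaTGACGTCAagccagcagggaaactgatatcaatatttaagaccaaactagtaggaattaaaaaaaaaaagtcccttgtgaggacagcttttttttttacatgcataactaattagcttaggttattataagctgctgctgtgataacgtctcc
Tfec, chr6:16898442-16898691, minus strand: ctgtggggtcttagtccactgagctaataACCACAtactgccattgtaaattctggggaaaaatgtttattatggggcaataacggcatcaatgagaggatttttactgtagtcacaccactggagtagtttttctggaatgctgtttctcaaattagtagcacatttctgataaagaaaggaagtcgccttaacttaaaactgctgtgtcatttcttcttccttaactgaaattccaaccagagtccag
The searches covered both strands of 300 bases, 250 before and 50 after each start, and overlapping motifs were counted separately. The CRE, TGACGTCA, was found in 1 of the 8 promoters, that of Mitf printed here, at -153 to -146 from the start, and in 1.79% of the 32851 promoters in the table. The other starts of Mitf held no CRE, and which start these cells use was not tested. The RUNX element TGTGGT (seen as its reverse complement in capitals for Tfec) was held by Tfec, the first start of Mitf and the first start of Runx1, and by 16.8% of all promoters. The PU.1 or ETS core GAGGAA was found 34 to 39 bases after the start of Tfec and upstream of the second start of Runx1, and in 28.3% of all. The C/EBP element TTNCGCAA was found at the first start of Mitf, and in 0.798% of all, and the E-box CACGTG at the first start of Runx1, and in 7.15% of all. The AP-1 element TGANTCA, the C/EBP-ATF composite TGATGNAA and the M-box CATGTG, held by 7.81%, 3.97% and 14.2% of all promoters, were in none of the 8. The Maf recognition element, of 13 letters, was in none of them either. It is held by only 2 of the 32851 promoters (0.00609%), so its absence here says little. The Cebpa and Cebpb promoters held no match. A match describes these letters only and is no evidence of binding.

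Cebpb encodes the C/EBP factor of the inflammatory and stress response in macrophages. It read 8.59, 8.55 and 8.63 on the ATF3-CKO arrays and 8.66, 8.48 and 8.73 on the WT arrays. The groups overlapped, with the WT values spread on both sides of the ATF3-CKO values. The difference was -0.03 (SE 0.09, limma adjusted p = 0.898), with a 95% interval of -0.24 to 0.18 that lies wholly below the difference of Cebpa.

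Cebpd, whose product acts with C/EBPβ in acute inflammation, read 6.08, 6.11 and 6.10 on the ATF3-CKO arrays and 5.93, 5.80 and 5.58 on the WT arrays. The ATF3-CKO values were nearly equal and all above the WT values. The difference of 0.32 (SE 0.10) did not pass the threshold in limma (adjusted p = 0.165). Cebpe, which encodes the C/EBP factor of late granulocyte maturation, read 3.11, 3.55 and 3.36 on the ATF3-CKO arrays and 3.56, 3.63 and 3.45 on the WT arrays. It was the only 1 of the 8 genes below the median level of all probe sets, and its groups overlapped. With a difference of -0.20 (SE 0.12, limma adjusted p = 0.463) at a signal near background, a change in Cebpe was not detectable here.

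Maf was the second gene to pass the threshold. Its probe set (TC0800002992.mm.1) read 8.89, 8.69 and 8.63 on the ATF3-CKO arrays and 7.99, 8.30 and 8.04 on the WT arrays. All ATF3-CKO arrays were above all WT arrays, and WT replicate 2 was the nearest to them. The means were 8.74 ± 0.14 in ATF3-CKO cells and 8.11 ± 0.17 in WT cells (SD, n = 3 each), a difference of 0.62 (SE 0.12), or 1.54-fold, with a limma adjusted p of 0.0423. This call was lost when any array other than WT replicate 2 was left out (adjusted p from 0.0737 to 0.144). It was also lost when array medians were set equal (difference 0.54, adjusted p = 0.104) and with trend and robust settings of eBayes together (adjusted p = 0.0692).

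Runx1 encodes the runt-domain factor that opens the way to definitive blood cells and later cooperates with PU.1. It read 9.52, 9.21 and 9.33 on the ATF3-CKO arrays and 9.0, 8.77 and 8.83 on the WT arrays, so that the groups did not overlap. The means were 9.35 ± 0.15 in ATF3-CKO cells and 8.87 ± 0.12 in WT cells (SD, n = 3 each). The difference of 0.49 (SE 0.11, 1.40-fold) missed the threshold in limma (adjusted p = 0.0694). Of 14 alternatives, 2 passed: quantile normalization (0.49, adjusted p = 0.0369) and array weights (0.42, adjusted p = 0.0408). Runx1 did not pass with any array left out (limma adjusted p from 0.102 to 0.199) or with equal array medians (0.40, adjusted p = 0.157).

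Mitf and Tfec, the MiT family genes, differed by about as much between arrays of a group as between groups. Mitf, known for osteoclast, melanocyte and mast cell genes, read 10.01, 9.41 and 9.69 on the ATF3-CKO arrays and 9.05, 9.47 and 8.83 on the WT arrays. Tfec, known for its expression in macrophages, read 11.09, 10.27 and 10.62 on the ATF3-CKO arrays and 9.52, 10.64 and 9.40 on the WT arrays. The order of the arrays within each group was the same for both genes: replicates 1, 3 and 2 from high to low in ATF3-CKO cells, and replicates 2, 1 and 3 in WT cells. WT replicate 2 was above the lowest ATF3-CKO array for both, and the groups overlapped.

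The difference was 0.59 (SE 0.20, limma adjusted p = 0.193) for Mitf. It was 0.80 (SE 0.35, limma adjusted p = 0.296) for Tfec, whose 95% interval ran from -0.03 to 1.63 and so held both no change and more than a doubling. Without WT replicate 2 the differences were 0.77 for Mitf (adjusted p = 0.100) and 1.20 for Tfec (adjusted p = 0.0514), and neither passed. The receptor gene Mertk, named after its values were seen, also had WT replicate 2 as its highest WT array, at 9.69 against 8.94 and 8.59 for WT replicates 1 and 3.

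**Figure D2:**
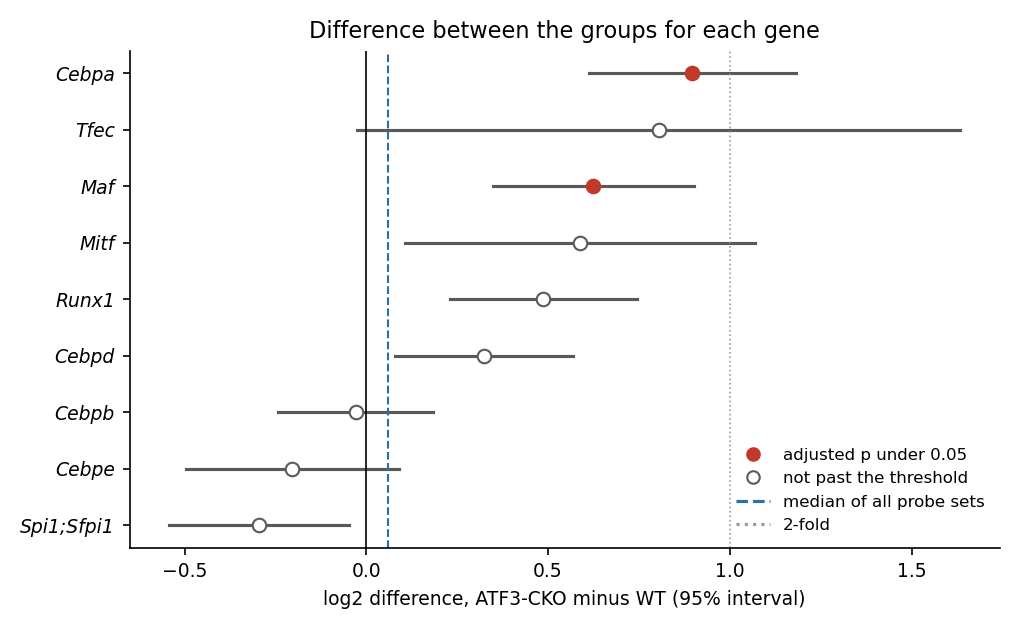
Log2 difference between ATF3-CKO and WT cells for each gene, as points with 95% intervals; filled points passed an adjusted p of 0.05, the dashed line is the median of all probe sets (0.06) and the dotted line a 2-fold difference. Cebpa and Maf are filled, and the interval of Tfec is the widest.

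The probe set annotated with both Spi1 and Sfpi1 read 14.02, 14.03 and 14.11 on the ATF3-CKO arrays and 14.21, 14.30 and 14.54 on the WT arrays. All 3 ATF3-CKO values were below the WT values, the opposite direction to the genes that rose. The difference of -0.30 (SE 0.10) did not pass the threshold in limma (adjusted p = 0.202), and over the 12 other settings run it lay between -0.39 and -0.19 and passed in none of them.

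**Figure D3:**
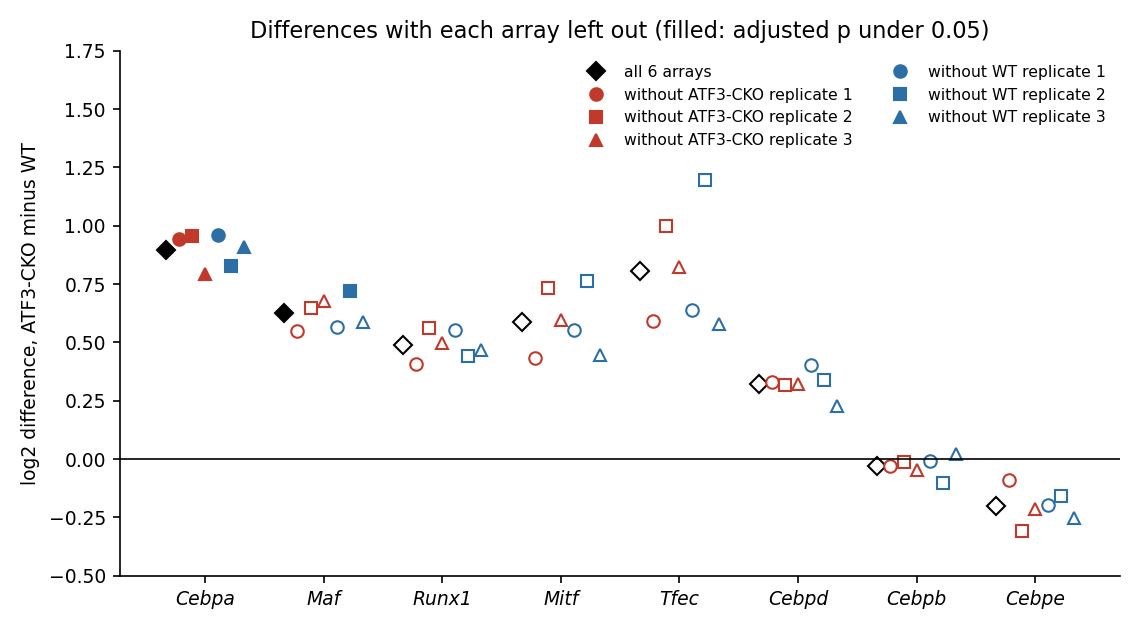
Log2 difference (ATF3-CKO minus WT) of the 8 genes in the fit of all 6 arrays (diamonds) and with each array left out (red symbols without an ATF3-CKO array, blue without a WT array); filled symbols passed an adjusted p of 0.05. Cebpa is filled throughout, Maf with all arrays or without WT replicate 2, and Tfec moves most, between 0.58 and 1.20.

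Close relatives of these factors were read as a list of 15 genes, of which 13 were measured. As background for this and the following lists, 773 of the 65956 probe sets (1.17%) passed as higher and 1108 as lower, and 2.85% passed in either direction. The share passing as lower among probe sets brighter than the median was not counted. Spic and Ddit3 rose and the other 11 did not pass, with a list median of 0.05 against 0.06 for all probe sets. Spic, the PU.1 relative of iron-recycling red pulp macrophages, read 11.02, 10.22 and 10.62 on the ATF3-CKO arrays and 6.72, 7.00 and 6.79 on the WT arrays, a difference of 3.78 (SE 0.20, limma adjusted p = 0.000312). Ddit3, which encodes CHOP, the stress-induced C/EBP relative and a known partner of ATF3, read 13.97, 14.05 and 13.96 on the ATF3-CKO arrays and 12.28, 11.82 and 12.29 on the WT arrays, a 3.64-fold rise (limma adjusted p = 0.00133). The groups of both genes were far apart and both calls held without any 1 array. The Ddit3 probe set (TSUnmapped00000016.mm.1) is 1 of those marked as unmapped transcripts.

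The remaining relatives gave small differences. Spib, the PU.1 relative of B cells and plasmacytoid dendritic cells, read 3.01 in ATF3-CKO cells and 3.03 in WT cells, near background. Tfeb and Tfe3, the MiT factors of lysosome formation, differed by -0.03 and 0.12, and Cbfb, the partner that stabilises RUNX proteins on DNA, by -0.03. The largest differences among the others by p were 0.19 for Nrl, a large Maf gene of rod photoreceptors, and 0.16 for Runx3. Runx2 was not analysed here.

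Among 30 other myeloid transcription factor genes measured, 3 rose and 1 fell, with a median of -0.04. Id2, which encodes an inhibitor of helix-loop-helix factors, averaged 17.07 ± 0.22 in ATF3-CKO cells and 15.84 ± 0.27 in WT cells (SD, n = 3 each), 2.35-fold higher (limma adjusted p = 0.0133). Id3, of the same family, was 1.87-fold higher (adjusted p = 0.018), and Batf, a partner of IRF4 and JUN proteins, 1.58-fold higher (adjusted p = 0.0222). Irf4, a lymphoid and dendritic cell factor that joins PU.1 on DNA, fell by 0.58 (adjusted p = 0.0346), with dim signals of 3.79 in ATF3-CKO cells and 4.37 in WT cells. The calls of all 3 genes that rose were lost without ATF3-CKO replicate 3 or WT replicate 1, that of Id2 also without ATF3-CKO replicate 2, and those of Id3 and Batf also without ATF3-CKO replicate 1. The Irf4 call was lost whichever array was left out. Irf8, which encodes the PU.1 partner of the monocyte lineage, averaged 9.62 ± 0.08 in ATF3-CKO cells and 9.59 ± 0.14 in WT cells.

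Genes known to depend on PU.1 in macrophages were split: 24 were measured, of which 3 rose and 4 fell, and their median was 0.05. Itgam, the CD11b integrin chain, read 11.17, 11.38 and 11.37 on the ATF3-CKO arrays and 14.95, 15.17 and 14.67 on the WT arrays, the lowest adjusted p of the list (0.000128). Its partner chain Itgb2 fell by 1.24 (adjusted p = 0.00156), as did Csf2ra, the receptor chain for GM-CSF, by 1.26 (adjusted p = 0.00435), and the TLR4-like receptor gene Cd180 by 1.21. Fcgr2b, the inhibitory IgG receptor, rose 3.17-fold (adjusted p = 0.000349), Cd14, the lipopolysaccharide co-receptor, 2.11-fold (adjusted p = 0.0225), and Fcgr3 1.77-fold. Csf1r, the M-CSF receptor and a classic PU.1 target, averaged 14.23 ± 0.08 in ATF3-CKO cells and 14.33 ± 0.44 in WT cells. Without WT replicate 2, 6 genes of the list rose, and without ATF3-CKO replicate 1 or 3 only 1 did. Cd180, Fcgr3 and Csf1r, like Cd68, Cd4, Elane, Mpo, Csf3r, Mmp8 and the monocyte markers, were named after their values were seen. So were the osteoclast markers Dcstamp, Calcr, Ocstamp and Oscar, and the granulocyte genes Prtn3 and Ctsg.

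Granulocyte genes that C/EBPα and C/EBPε control gave the median farthest from 0 among the 8 lists. Of 15 measured, 9 fell and none rose, with a median of -1.40. Elane, Mpo, Prtn3 and Ctsg lay below the median level of all probe sets and did not pass, with differences of -0.10 to 0.10. Ltf, the lactoferrin of secondary granules, read 5.40, 6.14 and 6.92 on the ATF3-CKO arrays and 11.45, 11.07 and 11.34 on the WT arrays, 35.1-fold lower in ATF3-CKO cells (limma adjusted p = 0.000946). Cd177 and Itgb2l, surface genes of neutrophils, were 3.07-fold and 2.64-fold lower, and Mmp9, the gelatinase of tertiary granules, 5.89-fold lower. Several genes of this list also serve as the neutrophil markers given above, which are lower in the same cells. The list also holds Csf3r and Mmp8. Csf3r, a C/EBPα target, stood at 8.54 ± 0.17 in ATF3-CKO cells and 7.78 ± 0.40 in WT cells (SD, n = 3 each), with a limma adjusted p of 0.102, and Mmp8 at 8.58 ± 0.34 in ATF3-CKO cells and 7.97 ± 0.14 in WT cells (SD, n = 3 each; limma adjusted p = 0.125).

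Of 17 genes tied to C/EBPβ and C/EBPδ in inflammation, 1 rose and 2 fell, with a median of 0.02. The acute phase genes Saa3 and Hp fell by 1.02 (adjusted p = 0.00251) and by 1.42 (adjusted p = 0.00646), and Cd14 was the gene that rose, a call lost without ATF3-CKO replicate 1 or 3. Ptges, a prostaglandin synthase, averaged 4.77 in ATF3-CKO cells and 5.07 in WT cells (adjusted p = 0.131).

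Of 13 osteoclast genes that MITF controls, 4 fell, none rose and 9 did not pass, with a median of -0.29. Among those 9 was Trem2, a receptor of osteoclasts and macrophages, named after its values were seen, with a difference of 0.20 (adjusted p = 0.651). Acp5, the tartrate-resistant phosphatase, read 7.00, 6.78 and 7.10 on the ATF3-CKO arrays and 10.19, 9.89 and 10.07 on the WT arrays, 8.50-fold lower (limma adjusted p = 0.000128). Ctsk, the collagen-degrading cathepsin, was 6.29-fold lower, Itgb3, the vitronectin receptor chain, 7.33-fold lower, and Ostm1, a partner of a lysosomal chloride transporter, 1.94-fold lower. These 4 calls held without any 1 array, and 3 of these genes are also among the osteoclast markers above.

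Lysosomal genes with elements for TFEB and MITF changed little. Of 15 measured, 1 passed as higher, with a median of -0.02. That gene was Sqstm1, the autophagy receptor p62, at 16.81 ± 0.01 in ATF3-CKO cells and 16.42 ± 0.06 in WT cells (SD, n = 3 each), 1.31-fold higher (limma adjusted p = 0.0443), and the call was lost whichever array was left out and after quantile normalization (difference 0.17). The proton pump genes Atp6v1b2 and Atp6v1h differed by -0.49 (adjusted p = 0.0536) and -0.74 (adjusted p = 0.0934), and Mcoln1, the lysosomal calcium channel, by 0.42 (adjusted p = 0.194).

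The 17 genes associated with c-Maf in tissue macrophages also split. Slc40a1, the iron exporter ferroportin, rose 4.22-fold (adjusted p = 0.0283), Hmox1, heme oxygenase, 1.43-fold (adjusted p = 0.0144), and C1qa, a complement chain, 1.67-fold (adjusted p = 0.0472). Folr2, the folate receptor of resident macrophages, read 11.23, 10.72 and 10.76 on the ATF3-CKO arrays and 15.30, 15.45 and 14.68 on the WT arrays, 18.9-fold lower (limma adjusted p = 0.000335). The other 13 did not pass, and the median was 0.14. Without WT replicate 2, 7 genes of the list rose, without WT replicate 3 only 1 did, and without ATF3-CKO replicate 1, 2 or 3 or WT replicate 1 none did, while the Folr2 call held throughout.

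**Figure D4:**
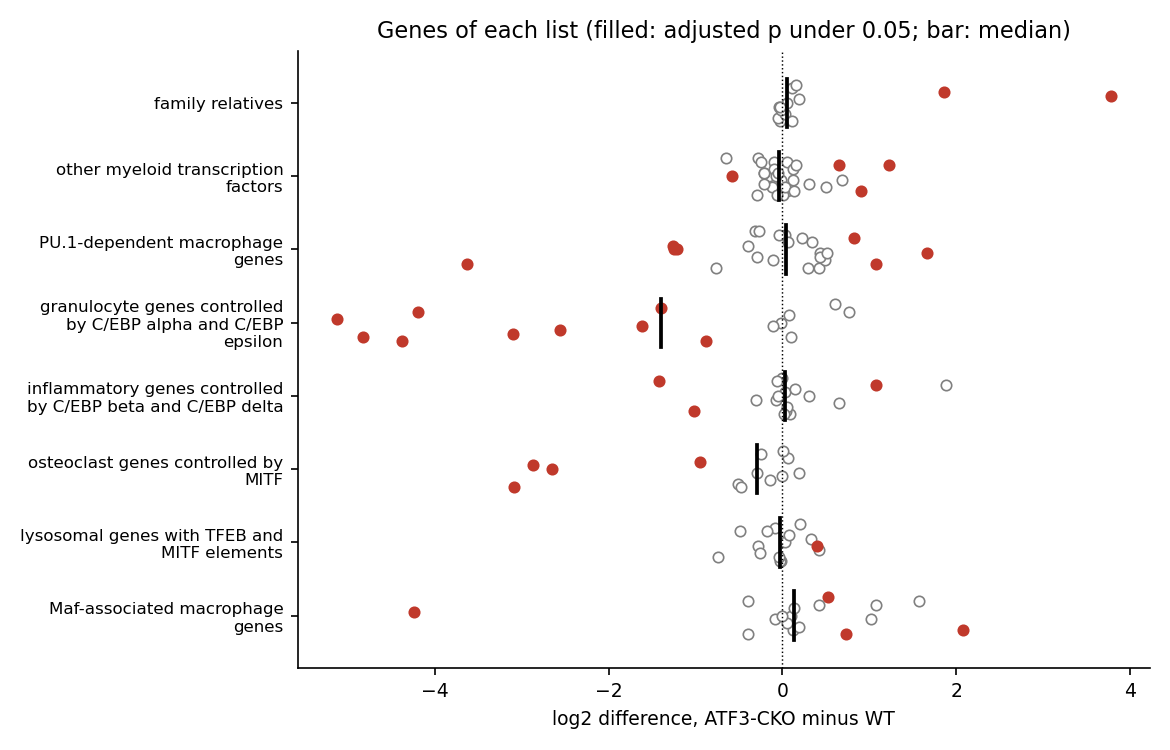
Log2 difference (ATF3-CKO minus WT) of each measured gene in the 8 gene lists; filled points passed an adjusted p of 0.05, and black bars mark list medians. The granulocyte list has its median at -1.40 with all 9 filled points below 0, while the other medians lie between -0.29 and 0.14.

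The genes with arrays most like those of Cebpa and Maf were sought among 17026 other genes above the median level, as a description over 6 arrays with no test. For Cebpa they were Gm22429 (Pearson r 0.998), Ch25h (0.996) and Gm12852 (0.996). For Maf they were Icam1 (0.996), Ly9 (0.995) and B9d2 (0.995). Ch25h, the cholesterol 25-hydroxylase, differed by 0.57 between the groups (adjusted p = 0.0231), Icam1, an adhesion receptor, by 0.99 (adjusted p = 0.0388) and Ly9, a SLAM family receptor, by 1.24 (adjusted p = 0.026). Each of these 3 calls held in 1 of the 6 fits with an array left out, where the highest adjusted p was 0.106 for Ch25h, 0.131 for Icam1 and 0.102 for Ly9. The other 3 genes did not pass. Over these arrays, r mixes the difference between the groups with the spread within them.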

How the data were processed

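RNA of 6 BMDM cultures was profiled on Affymetrix mouse arrays, Clariom D by the labels and Clariom S by the study's methods. The authors deposited log2 values made in Affymetrix Expression Console by robust multichip average (RMA), which subtracts background, equalises the arrays and combines the probes of a set. Versions, genome build and scan batches: not given in the sources used here. Of 72688 probe sets, 6732 controls were left out and 65956 were kept, 30646 annotated with 1 gene symbol, 2168 with several and 33142 with none. Groups came from the labels. Every probe set was fitted with limma 3.58.1 in R 4.3.3 (lmFit and eBayes, two-sided, group as the only term, ATF3-CKO minus WT), with Benjamini-Hochberg adjustment over all 65956 and a threshold of 0.05. All adjusted p-values given are from limma. With 3 arrays a group, the smallest p of an exact permutation test would be 0.1, and none was run. The fit was tested on simulated data.

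The transcription factor genes, gene lists, markers and motifs were chosen with earlier results of these data known. Named genes were the 9 factors, Atf3 and Lyz2, up to 4 genes of smallest p in each list, relatives and partners fixed by name, and the 3 genes most like each factor that passed; each gene was read from its brightest probe set with 1 symbol. No set test was run. Alternatives were quantile normalization, equal array medians, filters on level and on annotation, the replicate number as a block, eBayes with trend and robust settings, array weights, the mean of a gene's probe sets, and leaving out each array.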

Additional observations from a re-analysis of the deposited data

How the results depend on the processing

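The 8 transcription factor genes kept their direction under all alternatives run except Cebpb, which ran from -0.10 to 0.023 with an array left out and was above 0 without WT replicate 3. Of these genes, 2 were called as higher in the fit of all arrays, 1 when array medians were set equal, 1 with trend and robust settings and 1 to 2 with an array left out. The labels do not say whether equal replicate numbers pair the samples. Deviations from the group means correlated at 0.03, -0.09 and -0.07 between same-numbered arrays. Between arrays of different numbers they correlated at -0.06 to 0.12, so these values cannot settle whether samples were paired. The replicate block left 1 of the 8 genes called, 515 probe sets higher against 773, and Maf at 0.62 (adjusted p = 0.085). Maf was 0.54 with equal medians, 0.62 with trend and robust settings and 0.55 to 0.72 with an array left out, past the threshold only without WT replicate 2 among those. Runx1 passed in 2 of 14 alternatives, at 0.49 after quantile normalization and at 0.42 with array weights, and in none with an array left out. Each gene has 1 probe set, so averaging probe sets changed nothing, and Cebpe was not in the fit of brighter probe sets.

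Over all probe sets, 773 were higher and 1108 lower in the fit of all arrays. With equal medians these were 447 and 1297 (25.6% of calls higher, against 41.1%), with array weights 3119 and 2284, and with an array left out 141 to 982 and 402 to 1044. The lowest counts were without ATF3-CKO replicate 3, and each such fit has fewer arrays.

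Among the gene lists, equal medians left 1 of 3 calls higher in the other myeloid factors, 1 of 3 in the PU.1 list, 0 of 1 in the inflammatory list and 0 of 1 in the lysosomal list. Quantile normalization left 0 higher and 1 lower in the lysosomal list and 0 of 3 higher in the Maf list. The filter on brighter probe sets left 0 lower among the other myeloid factors, and 0 higher and 1 lower in the lysosomal list. The replicate block left 1 higher and 0 lower among the other myeloid factors and 0 higher in the lysosomal and Maf lists. With an array left out, calls ran from 0 to 4 higher and 0 to 0 lower in the other myeloid factors, 1 to 6 higher in the PU.1 list, 0 to 1 higher and 6 to 9 lower in the granulocyte list, 0 to 1 higher in the inflammatory list, 0 to 0 higher and 0 to 1 lower in the lysosomal list, and 0 to 7 higher in the Maf list. Genes with differences near 0 changed sign with an array left out: Spib (-0.060 to 0.030), Tfeb (-0.089 to 0.031), Tfe3 (-0.055 to 0.29), Irf8 (-0.042 to 0.097, and -0.055 with equal medians) and Cbfb (-0.16 to 0.071, and 0.079 with array weights). Dim genes such as Cebpe and Spib lie near the background of the array, which limits what can be seen of them.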
